A study of Mus musculus with 11 samples.

Results

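The 2-5A synthetases are the enzymes that read double-stranded RNA in the interferon response, and 7 of the mouse genes of this family, Oas1a, Oas1b, Oas1g, Oas2, Oas3, Oasl1 and Oasl2, were followed across adipogenesis and the knock-down of a pair of nuclear envelope proteins. The members were chosen by gene symbol, with earlier results of these data known, and every probe annotated to them was taken. This gave 7 of the 19057 genes on the array and 17 of its 45281 probes. The cells were 3T3-L1, a mouse fibroblast line that becomes fat-storing adipocytes when given an inducing cocktail, and expression was measured on 11 Illumina MouseWG-6 v2 BeadChip arrays in 5 groups. All groups carried a lentiviral shRNA in stable lines. The preadipocytes (day 0, n = 2) and the control adipocytes (n = 3) carried a non-target shRNA, and the adipocytes of the Tmem120a knock-down (n = 2), the Tmem120b knock-down (n = 2) and the double knock-down (n = 2) carried shRNAs against Tmem120a, Tmem120b or both. Adipogenesis was started with insulin at 0.5 µM, dexamethasone and rosiglitazone at 1 µM each and IBMX, which blocks phosphodiesterases, at 0.5 mM, and was kept up with insulin and rosiglitazone. The sample labels place them at day 9, whereas the study's methods give day 6. The sources do not say how many shRNA lines make up a group, so that the knock-down and any other property of a line cannot be told apart, and the methods call the replicates biological without saying whether they were separate cultures, so the p-values cover the scatter among these arrays alone.

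In the textbook pathway, double-stranded RNA binds a synthetase, which then joins ATP into short 2′,5′-linked oligoadenylates, or 2-5A. These are second messengers that lead to the decay of viral and cellular RNA and so to a halt in protein synthesis. The synthetase genes are themselves switched on by interferon through a complex that includes Stat2 and Irf9 and binds a GAAA-repeat element in promoters, so a cell holds little of the enzymes until an interferon signal arrives. The mouse carries a cluster of Oas1 copies beside Oas2 and Oas3 on chromosome 5, with the Oasl genes apart from it on the same chromosome. In the RefSeq gene order Oasl2 and Oasl1 lay next to each other, and Oas2, Oas3, Oas1e, Oas1c, Oas1b, Oas1f, Oas1h, Oas1g, Oas1a and Oas1d followed in that order in the cluster.

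Promoters were available from RefSeq for 5 of the 7 members. The 150 bases before the transcript start are shown for 4 of them, 5′ to 3′ on the gene's strand, because Oas1a and Oas1g, the close copies, share both matches to the interferon motif, Oas3 holds it once, and Oasl2 holds none. Capitals mark matches to GAAANNGAAA on either strand, a simplified form of the interferon-stimulated element, and in Oas1a and Oas1g the pair of matches overlap. The windows are chr5:120907526-120907675 (minus strand) for Oas1a, chr5:120887614-120887763 (minus strand) for Oas1g, chr5:120777660-120777809 (minus strand) for Oas3 and chr5:114896784-114896933 (plus strand) for Oasl2, in GRCm38.p6.
Oas1a: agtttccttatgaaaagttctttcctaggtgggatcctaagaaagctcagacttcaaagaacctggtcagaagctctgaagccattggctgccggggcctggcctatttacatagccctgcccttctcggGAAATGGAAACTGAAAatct
Oas1g: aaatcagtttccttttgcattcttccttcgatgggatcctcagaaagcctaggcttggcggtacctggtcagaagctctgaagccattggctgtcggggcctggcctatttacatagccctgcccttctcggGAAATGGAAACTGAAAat
Oas3: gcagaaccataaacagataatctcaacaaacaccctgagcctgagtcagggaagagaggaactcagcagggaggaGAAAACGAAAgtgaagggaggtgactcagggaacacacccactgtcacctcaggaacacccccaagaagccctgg
Oasl2: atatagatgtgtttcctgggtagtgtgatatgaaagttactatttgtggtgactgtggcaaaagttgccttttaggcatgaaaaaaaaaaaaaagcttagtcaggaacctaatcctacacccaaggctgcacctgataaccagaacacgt
Within 300 bases, from 250 before to 50 after the start, Oas1a and Oas1g each held 2 matches and Oas3 held 1, while Oasl1 and Oasl2 held 0. In Oas1a the matches lay 20 to 11 and 14 to 5 bases before the start, in Oas1g 18 to 9 and 12 to 3, and in Oas3 75 to 66. The motif occurred in 1079 of 27025 promoters of the same length (3.99%), in 10 of 19 promoters of the interferon-induced effector genes described further on, in 3 of 12 of the nucleic acid sensing genes and in 2 of 8 of the interferon receptor signalling genes. The upstream 250 bases of Oas1a and Oas1g were identical at 212 of 256 aligned positions (82.8%), against 45.7% to 49.8% for the other pairs. A match describes the letters only, and its absence says nothing of binding elsewhere.

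Values below are normalised log2 signals, on which a step of 1 is a doubling of signal. A probe was taken as above background beyond 6.88, the mode of all values plus 3 times the spread below it. A probe was called where limma's adjusted p, over all 45281 probes, was at most 0.05 and the log2 difference was at least 0.5 in size. Where a group lay at or below background on every array, the fold is a lower limit against the higher of that threshold and the measured signal, written "at least". On the 6 knock-down arrays the median signal before normalisation was 6.58 to 6.70, against 6.75 to 7.10 on the 5 others. After normalisation 38.4% to 38.5% of probes lay above background on every array. The shRNA targets followed their labels: the brightest Tmem120a probe stood at 39.9% of control in the Tmem120a knock-down and 45.9% in the double knock-down, and that of Tmem120b at 23.8% in the Tmem120b knock-down and 32.5% in the double knock-down. Of 10 adipocyte markers 9 rose in differentiation, as the adipocyte label implies. Of 8 fibroblast and preadipocyte markers 3 fell and 1 rose, with a median difference of -0.064.

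Of the 7 members, Oas1b, Oas1g, Oas2 and Oasl2 had a probe above background on at least 1 array, 8 probes in all, while the 9 remaining probes were never above it. These 4 genes shared an order across the groups. They were lowest in preadipocytes, higher or little different in control and Tmem120a knock-down adipocytes, and highest where Tmem120b had been knocked down, alone or with Tmem120a. Oas1b passed the background filter only on arrays with the Tmem120b shRNA, so its highest place there is no support for the order. Its levels in the other groups, and that of Oas2 in preadipocytes, were at background. In the Tmem120b knock-down 6 of the 17 probes, of 4 genes, rose and 0 fell, against 2.33% of all probes called higher. In the double knock-down 5 probes, of 3 genes, rose and 0 fell, against 2.12% of all probes. Among the 23454 probes above background on some array, 4.5% were called higher in the Tmem120b knock-down and 4.1% in the double knock-down. The median difference of the member probes was 0.09 in the Tmem120b knock-down, beside 0.01 over all probes, and 9 of the 17 were never above background.

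**Figure D1:**
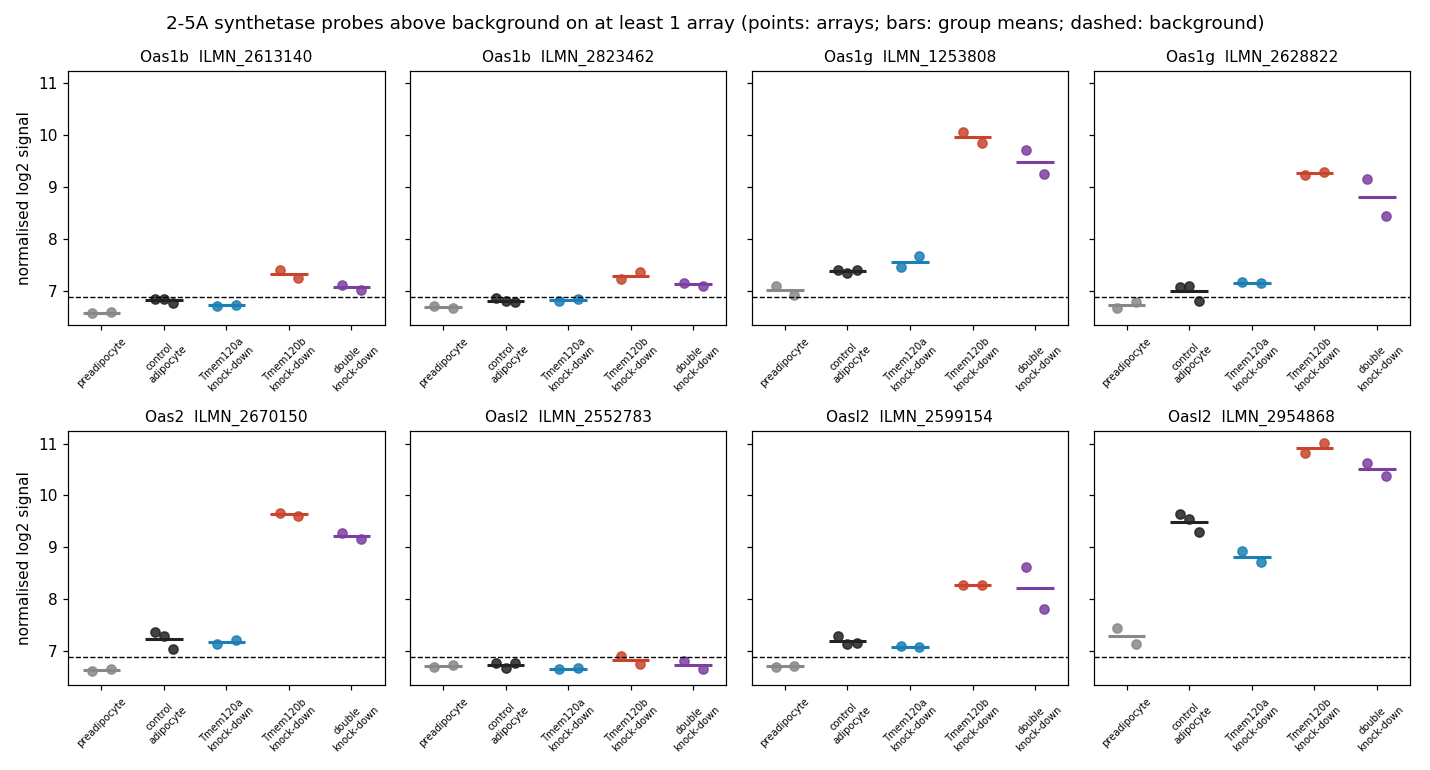
Normalised log2 signal (vertical axis) of the 8 member probes that were above background on at least 1 array, by group; points are arrays, bars are group means and the dashed line is the background threshold of 6.88. On the bright Oas1g, Oas2 and Oasl2 probes every Tmem120b and double knock-down array lies above every control adipocyte array.

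Oas1g encodes an active synthetase of the Oas1 type. Its brightest probe, ILMN_1253808, read 7.08 and 6.92 in preadipocytes, 7.40, 7.35 and 7.40 in control adipocytes and 7.45 and 7.66 in the Tmem120a knock-down. It read 10.06 and 9.85 in the Tmem120b knock-down and 9.71 and 9.26 in the double knock-down. The 4 arrays with the Tmem120b shRNA thus stood far above the 7 others with no overlap. Oas1g rose 5.97-fold in the Tmem120b knock-down (log2 difference 2.58 ± 0.12 SE, adjusted p = 4.28e-08) and 4.30-fold in the double knock-down (2.10 ± 0.12 SE, adjusted p = 1.82e-07). In differentiation its difference was 0.38 ± 0.12 SE, which passed the p threshold (adjusted p = 0.0268) but not the minimum size, and in the Tmem120a knock-down 0.18 ± 0.12 SE (adjusted p = 0.475).

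A second Oas1g probe, ILMN_2628822, read 6.66 and 6.77 in preadipocytes, 7.08, 7.09 and 6.79 in control adipocytes and 7.16 and 7.14 in the Tmem120a knock-down. With the Tmem120b shRNA it read 9.24 and 9.29, and with both shRNAs 9.15 and 8.44. The order of the groups was that of the first probe, and the second double knock-down array was again the lower of its pair. This probe rose by 2.27 ± 0.15 SE in the Tmem120b knock-down (adjusted p = 8.07e-07) and by 1.81 ± 0.15 SE in the double knock-down (adjusted p = 5.27e-06). The 3 other probes annotated to Oas1g, ILMN_1255890, ILMN_2624469 and ILMN_2816196, stayed between 6.51 and 6.79 on all 11 arrays. The probes of Oas1g therefore disagree, in that 2 of 5 detected a signal.

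Oas1a, the neighbouring and closely related active synthetase, was represented by 1 probe, ILMN_2924839, which read 6.55 and 6.53 in preadipocytes, 6.65, 6.69 and 6.72 in control adipocytes and 6.58 and 6.61 in the Tmem120a knock-down. It read 6.63 and 6.88 in the Tmem120b knock-down and 6.77 and 6.58 in the double knock-down, so that no array was above background. Its differences lay within 0.15 of 0 in differentiation and all 3 knock-downs, and none was called. Because Oas1a and Oas1g are close copies and the probe sequences were not used here, signal of the Oas1g probes could include RNA of Oas1a or of another copy, and each Oas1 assignment is uncertain to that extent.

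Oas1b, known in wild-derived mice for resistance to flaviviruses, is annotated in the RefSeq reference as a transcribed pseudogene. Probe ILMN_2613140 read 6.56 and 6.59 in preadipocytes, 6.83, 6.83 and 6.76 in control adipocytes, 6.70 and 6.73 in the Tmem120a knock-down, 7.39 and 7.24 in the Tmem120b knock-down and 7.11 and 7.02 in the double knock-down. Only the 4 arrays with the Tmem120b shRNA were above background. Oas1b was at least 1.35-fold higher in the Tmem120b knock-down (log2 difference 0.51 ± 0.060 SE, adjusted p = 7.66e-05), while in the double knock-down the difference of 0.25 ± 0.060 SE (adjusted p = 0.0121) fell short of the minimum size. The other probe, ILMN_2823462, read 7.22 and 7.35 in the Tmem120b knock-down, 7.14 and 7.10 in the double knock-down and 6.67 to 6.85 elsewhere. Its differences were 0.48 ± 0.056 SE (adjusted p = 6.58e-05) and 0.31 ± 0.056 SE (adjusted p = 0.00194), both under the minimum size. The call of ILMN_2613140 sat at that limit: its difference was 0.48 without control adipocyte replicate 3, 0.43 without Tmem120b knock-down replicate 1 and 0.38 when the arrays were aligned by their medians in place of quantile normalisation, none of them called.

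Oas2, the medium form of the enzyme, was measured by 1 probe, ILMN_2670150. It read 6.60 and 6.66 in preadipocytes, both at background, and 7.36, 7.29 and 7.04 in control adipocytes. In the Tmem120a knock-down it read 7.14 and 7.21, inside the range of the controls, whereas it read 9.67 and 9.61 in the Tmem120b knock-down and 9.28 and 9.15 in the double knock-down. Oas2 was at least 1.27-fold higher in control adipocytes than in preadipocytes (log2 difference 0.60 ± 0.084 SE, adjusted p = 8.31e-05). It rose 5.31-fold in the Tmem120b knock-down (2.41 ± 0.084 SE, adjusted p = 1.23e-08) and 3.96-fold in the double knock-down (1.99 ± 0.084 SE, adjusted p = 3.73e-08). In the Tmem120a knock-down the difference was -0.05 with a 95% interval of -0.24 to 0.13. Under cyclic loess normalisation the differentiation difference was 0.49 and no longer called.

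Oas3 is the large form of the enzyme. Its probes ILMN_1216020 and ILMN_2650991 lay between 6.49 and 6.82 on all 11 arrays and were never above background. No change was called, and at this signal a change in Oas3 below the detection limit of the probes could not be seen.

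Oasl2 belongs to the Oas-like genes, which carry ubiquitin-like domains, and in the mouse it keeps synthetase activity. Probe ILMN_2954868 read 7.45 and 7.14 in preadipocytes, 9.64, 9.54 and 9.30 in control adipocytes and 8.92 and 8.71 in the Tmem120a knock-down. It read 10.81 and 11.02 in the Tmem120b knock-down and 10.63 and 10.37 in the double knock-down. The 5 groups did not overlap, and ran upward from preadipocytes through the Tmem120a knock-down, control adipocytes and the double knock-down to the Tmem120b knock-down. Oasl2 rose 4.60-fold in differentiation (log2 difference 2.20 ± 0.12 SE, adjusted p = 1.25e-08), fell 1.60-fold in the Tmem120a knock-down (-0.67 ± 0.12 SE, adjusted p = 0.00422), and rose 2.68-fold in the Tmem120b knock-down (1.42 ± 0.12 SE, adjusted p = 5.35e-06) and 2.01-fold in the double knock-down (1.01 ± 0.12 SE, adjusted p = 9.54e-05). The fall in the Tmem120a knock-down was not called without that group's replicate 2 (-0.57, adjusted p = 0.0562). With median alignment in place of quantile normalisation the double knock-down difference was 0.69 and not called (adjusted p = 0.0755), and the Tmem120a fall was -1.21.

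A second Oasl2 probe, ILMN_2599154, read 6.68 and 6.72 in preadipocytes, 7.29, 7.14 and 7.14 in control adipocytes and 7.09 and 7.07 in the Tmem120a knock-down. In the Tmem120b knock-down it read 8.27 and 8.28, and in the double knock-down 8.62 and 7.82, the widest pair of the family. It rose by 1.08 ± 0.16 SE in the Tmem120b knock-down (adjusted p = 0.000417) and by 1.03 ± 0.16 SE in the double knock-down (adjusted p = 0.000687), the latter being 0.62 without double knock-down replicate 1. Its difference in the Tmem120a knock-down was -0.11, with a 95% interval of -0.46 to 0.24, so the fall of the brighter probe was not seen on it. Its differentiation difference of 0.49 (adjusted p = 0.036) was just under the minimum size. The third probe, ILMN_2552783, was above background on 1 array, at 6.90 in the Tmem120b knock-down.

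Oasl1, which has no synthetase activity and in the mouse restrains translation of the interferon regulator Irf7, had 3 probes, ILMN_2717366, ILMN_2722380 and ILMN_2793464. They lay between 6.43 and 6.80 on all 11 arrays and were never above background, and none was called in any comparison. Of the neighbouring pair of Oas-like genes, then, only Oasl2 was detected.

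**Figure D2:**
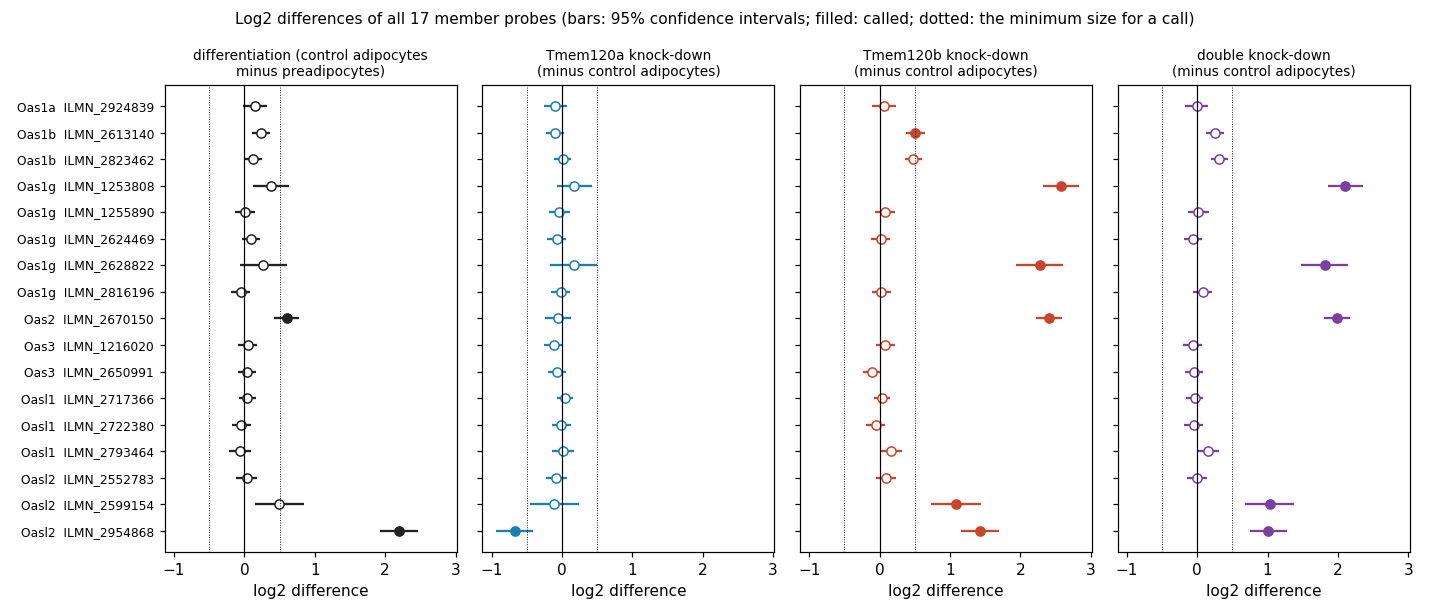
Log2 differences (horizontal axis) of all 17 member probes in 4 comparisons; bars are 95% confidence intervals, filled points were called and dotted lines mark the minimum size of 0.5. Filled points lie to the right for 2 probes in differentiation, 6 in the Tmem120b and 5 in the double knock-down, and 1 lies to the left in the Tmem120a knock-down.

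In differentiation 2 of the 17 probes rose (Oas2 and Oasl2) and 0 fell, beside 7.99% of all probes called higher and 15.4% of those above background on some array. The median over all 17 was 0.10, beside -0.00466 over all probes. By adjusted p alone 5 member probes passed, a looser rule for which the share of all probes was not computed. In the Tmem120a knock-down 1 probe, of Oasl2, fell, beside 1.92% of all probes called lower, and the median over all 17 was -0.05, beside 0.01. In the double knock-down it was 0.08, beside 0.01. These comparisons share the control adipocyte arrays.

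The single knock-downs were compared directly. In the Tmem120b against the Tmem120a knock-down 6 of the 17 member probes were higher and 0 lower, beside 2.25% of all probes called higher. Oas2 differed 5.52-fold (log2 difference 2.46 ± 0.092 SE, adjusted p = 5.65e-08), Oas1g 5.28-fold (2.40 ± 0.13 SE, adjusted p = 3.32e-07), Oasl2 4.29-fold (2.10 ± 0.13 SE, adjusted p = 1.41e-06) and Oas1b at least 1.35-fold (0.60 ± 0.066 SE, adjusted p = 7.78e-05) each on its brightest called probe. Adding the Tmem120b shRNA to the Tmem120a shRNA gave the same order. In the double against the Tmem120a knock-down 5 probes were higher and 0 lower, beside 1.72% of all probes. There Oas2 rose 4.12-fold (2.04 ± 0.092 SE, adjusted p = 5.55e-07), Oas1g 3.80-fold (1.93 ± 0.13 SE, adjusted p = 5.09e-06) and Oasl2 3.22-fold (1.68 ± 0.13 SE, adjusted p = 1.49e-05).

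Adding the Tmem120a shRNA to the Tmem120b shRNA gave smaller differences, all below the threshold. In the double against the Tmem120b knock-down limma called 0 of the 17 probes, beside 0.159% of all probes called either way. An unadjusted limma p under 0.05 was found for 6, and the share of all probes under it was not computed. Oas2 differed by -0.42 (95% interval -0.62 to -0.22, adjusted p = 0.102), Oas1g by -0.47 (-0.75 to -0.20, adjusted p = 0.193) and Oasl2 by -0.41 (-0.71 to -0.12, adjusted p = 0.32). The mean of the double knock-down was the lower on these 3 probes. The intervals are not adjusted for the number of probes. Without double knock-down replicate 1, which leaves 1 array assumed to vary like the other groups, both bright Oas1g probes were called lower (-0.70, adjusted p = 0.00846, and -0.82, adjusted p = 0.00422).

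The double knock-down was also set against the sum of the single effects. Limma called 0 of 17 member probes for a departure from additivity, beside 2.01% of all probes called either way. An unadjusted limma p under 0.05 was found for 3, again with no share of all probes computed. The departure was -0.65 ± 0.17 SE for Oas1g (adjusted p = 0.0744), -0.37 ± 0.13 SE for Oas2 (adjusted p = 0.181) and 0.26 ± 0.18 SE for Oasl2 (adjusted p = 0.612). For Oas1g the call turned with the processing. It was reached with only the probes above background (adjusted p = 0.0381), with an intensity trend in the moderation (adjusted p = 0.0365), with cyclic loess (-0.75, adjusted p = 0.0432) and without double knock-down replicate 1 (-0.88, adjusted p = 0.00356).

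The knock-downs were also set against preadipocytes, which does not test the order among the other groups. Oasl2 was 2.88-fold higher in the Tmem120a knock-down (adjusted p = 1.06e-06), 9.26-fold in the double knock-down (adjusted p = 1.13e-09) and 12.3-fold in the Tmem120b knock-down (adjusted p = 3.95e-10). Oas2 was at least 1.23-fold (adjusted p = 0.000417), 5.04-fold (adjusted p = 2.71e-10) and 6.76-fold (adjusted p = 7.89e-11) higher in the same groups. Oas1g was 1.47-fold (adjusted p = 0.00431), 5.58-fold (adjusted p = 7.42e-09) and 7.75-fold (adjusted p = 1.58e-09) higher. Some groups next to each other by mean were not called different. These were the Tmem120b and double knock-downs for all 3 genes, control and Tmem120a knock-down adipocytes for Oas1g and Oas2, and, by the minimum size alone, preadipocytes and control adipocytes for Oas1g. Across the 11 arrays the signals of Oas1g and Oas2 correlated at r = 0.992 and those of Oas1b with either at 0.974 and 0.98, while Oasl2 correlated with the 3 others at 0.857 to 0.893. These are descriptions over arrays that share their groups and normalisation.

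The 3 partners of the pathway analysed here were each read on the brightest probe, and none was called higher in a knock-down. Abce1, a factor of ribosome recycling, had means of 9.19 in preadipocytes, 8.53 in control adipocytes, 7.78 in the Tmem120a knock-down, 7.55 in the Tmem120b knock-down and 7.40 in the double knock-down. It fell in differentiation (-0.66 ± 0.095 SE, adjusted p = 0.000103) and in the Tmem120a (-0.75 ± 0.095 SE, adjusted p = 0.000296), Tmem120b (-0.98 ± 0.095 SE, adjusted p = 1.35e-05) and double knock-downs (-1.13 ± 0.095 SE, adjusted p = 4.51e-06). Akap7, a kinase anchor with a 2′,5′-phosphodiesterase domain that degrades 2-5A, rose in differentiation (1.20 ± 0.060 SE, adjusted p = 4.16e-09) and fell in the double knock-down (-0.56 ± 0.060 SE, adjusted p = 3.34e-05). Its differences in the Tmem120a (-0.32, adjusted p = 0.00512) and Tmem120b knock-downs (-0.40, adjusted p = 0.000459) were under the minimum size. Pde12, which also degrades 2-5A, was called in none of these comparisons, with means of 7.83 to 8.30. The other probes of Abce1 and Akap7 were at background on all 11 arrays and so could not show these falls.

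The 5 other Oas1 copies measured, Oas1c, Oas1d, Oas1e, Oas1f and Oas1h, had 0 called in any comparison. Oas1d, for one, is known from the ovary. On their brightest probes Oas1e, Oas1f and Oas1h were above background on 0 arrays, Oas1d on 1 and Oas1c on 6. For all but Oas1c, a change below the detection limit could thus hardly be seen, and the 0 does not show that these copies were unchanged. Oas1c had means of 6.85 in preadipocytes, 6.91 in control adipocytes, 6.83 in the Tmem120a, 7.10 in the Tmem120b and 6.97 in the double knock-down, and the remaining group means of the set were 6.59 to 6.93.

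Genes that sense foreign nucleic acid rose in part. Of 16 measured, 6 rose and 0 fell in the Tmem120b knock-down and 3 rose in the double knock-down, while 0 were called in the Tmem120a knock-down. Dhx58, a cytoplasmic RNA sensor, went from 8.12 in control adipocytes to 9.47 in the Tmem120b knock-down (log2 difference 1.35 ± 0.10 SE, adjusted p = 2e-06), and Eif2ak2, the double-stranded RNA kinase PKR, from 10.3 to 11.4 (1.03 ± 0.076 SE, adjusted p = 1.54e-06). Irf7, a regulator of interferon genes, rose by 0.89 ± 0.13 SE (adjusted p = 0.000317). Ifnb1, the gene of interferon beta, was at background on all 11 arrays.

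Interferon receptor signalling had 4 of 9 measured genes higher and 1 lower in both the Tmem120b and the double knock-down, and 2 lower in the Tmem120a knock-down. Usp18, a brake on the receptor, rose by 2.37 ± 0.13 SE in differentiation, fell by 0.63 in the Tmem120a knock-down (adjusted p = 0.00858) and rose by 2.09 ± 0.13 SE in the Tmem120b (adjusted p = 3.54e-07) and 1.07 ± 0.13 SE in the double knock-down (adjusted p = 8.8e-05). Stat2 and Irf9, which belong to the complex named above, rose in the Tmem120b knock-down by 0.91 ± 0.088 SE (adjusted p = 1.5e-05) and 0.93 ± 0.097 SE (adjusted p = 2.77e-05). The single fall there was Jak1, a kinase of the receptor, whose means were 8.78 in control adipocytes, 7.34 in the Tmem120a, 7.03 in the Tmem120b and 7.12 in the double knock-down. Jak1 thus fell on its brightest probe in all 3 knock-downs (adjusted p = 1.82e-06, 1.03e-07 and 1.72e-07), with its other probes at or near background and not called.

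Most of the interferon-induced effectors were called. Of 22 measured, 15 rose and 2 fell in differentiation, 1 rose in the Tmem120a knock-down, 18 rose and 0 fell in the Tmem120b knock-down, and 17 rose and 0 fell in the double knock-down, with medians of 0.98, -0.11, 1.32 and 0.91. The ubiquitin-like modifier Isg15 rose by 2.09 ± 0.13 SE in differentiation (adjusted p = 3.6e-08). It went from 9.49 in control adipocytes to 11.6 in the Tmem120b knock-down (log2 difference 2.09 ± 0.13 SE, adjusted p = 4.08e-07) and 11.1 in the double knock-down (1.66 ± 0.13 SE, adjusted p = 2.73e-06). Psmb8, a subunit of the immunoproteasome, rose by 1.51 ± 0.071 SE in the Tmem120b knock-down (adjusted p = 5.54e-08), and Parp14, an ADP-ribosyltransferase, by 1.63 ± 0.087 SE (adjusted p = 1.32e-07). The 1 effector that rose in the Tmem120a knock-down was Rsad2, the antiviral enzyme viperin (0.55 ± 0.11 SE, adjusted p = 0.00984). Members and lists were picked with results of these arrays known, so these counts describe the samples and are no independent evidence of a direction.

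**Figure D3:**
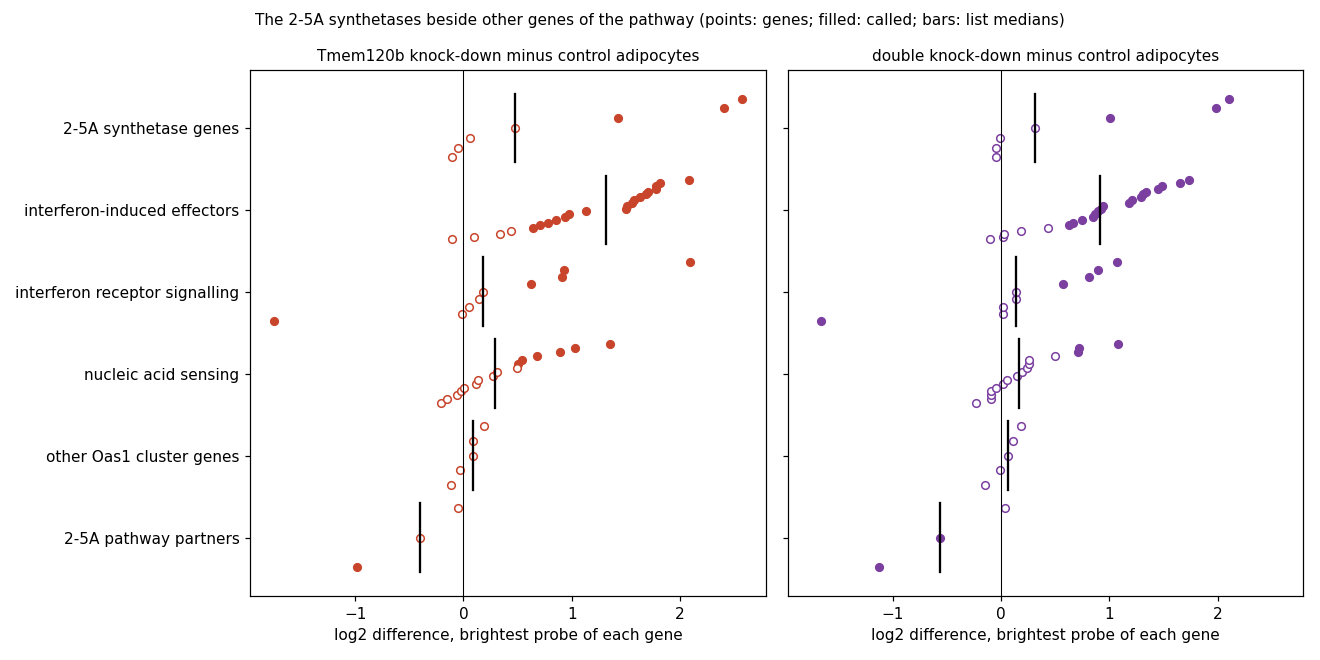
Log2 difference from control adipocytes (horizontal axis) in the Tmem120b and double knock-downs for the brightest probe of each gene, by list; points are genes, filled where called, and vertical bars are list medians. The effectors lie mostly to the right, with 18 of 22 called higher in the Tmem120b and 17 in the double knock-down, while none of the 2-5A pathway partners was called higher.

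Markers of other cells were read beside these rises. Of 12 leukocyte markers measured, 7 were above background on some array, and Ptprc, Emr1, Fcgr1, C1qb and Laptm5 were at background on all 11. The mean signal over the list, as log2, was 6.91 on the preadipocyte arrays, 6.92 to 6.94 in control adipocytes, 7.06 to 7.10 in the Tmem120a, 7.04 to 7.05 in the Tmem120b and 7.10 to 7.17 in the double knock-down. In differentiation 1 of the 12 was called higher, the macrophage receptor Siglec1, whose means were 6.67 in preadipocytes and 7.57 in control adipocytes (log2 difference 0.90, adjusted p = 3.35e-06) and 7.70 to 7.80 in the knock-downs. The macrophage lysozyme Lyz2 was the 1 marker called higher in the Tmem120b and double knock-downs, by 0.54 in the Tmem120b (adjusted p = 0.00198) and 0.87 in the double knock-down (adjusted p = 5.4e-05). Of 8 fibroblast and preadipocyte markers, 3 rose and 1 fell in the Tmem120b knock-down and 2 rose and 1 fell in the double knock-down, with 0 higher and 1 lower in the Tmem120a knock-down. In the Tmem120b and double knock-downs Acta2, the smooth muscle actin, rose by 1.75 and 1.20 and Thy1, a fibroblast surface protein, by 0.59 and 0.54. The marker that fell was Col3a1, with a mean of 12.5 in control adipocytes. Its means were 10.8 in the Tmem120a, 11.2 in the Tmem120b and 10.7 in the double knock-down. Of the 10 adipocyte markers 1 rose and 2 fell in the Tmem120b and 2 fell in the double knock-down. In bulk samples, a change in the share of a cell type and a change in RNA per cell cannot be told apart, and the part of these markers in the synthetase results was not tested.

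The genes whose pattern was most like that of the family were found by Pearson's r over the 11 arrays with the mean centred profile of Oas1b, Oas1g, Oas2 and Oasl2, among 2882 candidate genes above background whose group means spanned at least 1. They were Apol9a (r = 0.997), Fam110b (0.994), Mx2 (0.994), Phf11d (0.993), Csprs (0.992), Psmb8 (0.991), Ppef1 (0.988) and Rtp4 (0.986), of which Mx2, Psmb8 and Rtp4 belong to the effector list. Apol9a had means of 6.78 in preadipocytes, 7.63 in control adipocytes, 7.38 in the Tmem120a, 9.36 in the Tmem120b and 8.84 in the double knock-down. Mx2, a dynamin-like antiviral protein, had means of 6.85, 8.01, 7.66, 9.78 and 9.32 in the same order. The ranking is loose at its top, since by Spearman's rho 0 of these 8 were among the first 8, and over the 9 adipocyte arrays 2 were.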

How the data were processed

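Total RNA of 3T3-L1 cells was hybridised as biotin-labelled cRNA to Illumina MouseWG-6 v2 BeadChips, 1 array per sample. The authors deposited 2 tables of log2 probe signals, without detection p-values, for 45281 probes: one not normalised between arrays, the other quantile-normalised over all 11 arrays, which was used here. For the summary of bead values the method is not given in the sources used. The submitters' processing notes name limma. All columns were matched to samples by name, leaving 0. Gene names came from the platform annotation: 34885 probes had 1 symbol, 18 several and 10378 none.

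A linear model of 5 group means was fitted with limma 3.58.1 in R 4.3.3, with empirical Bayes moderation (6 residual and 6.15 prior degrees of freedom) and Benjamini-Hochberg adjustment over all probes. All adjusted p-values are from limma. A call needed an adjusted p of 0.05 and a log2 difference of 0.5, the cut-offs of the study's methods. The methods used the moderated F statistic and a low-intensity filter at log2 6.5, whereas each comparison was tested here as its own contrast without that filter, which was tried as an alternative. The threshold of 6.88 for background was the mode, 6.66, plus 3 times 0.0738. Precision is limited by the number of arrays, with a typical (median) residual SD of 0.0728 per probe. Every member probe was named, with both targets, up to 4 called genes of each pathway list per comparison by moderated statistic, the 2-5A partners and the 8 most alike genes. Every gene outside the family was read on its brightest probe, apart from the other-probe values named below. Of the 2-5A partners listed, 1 is not reported here. The members and lists were chosen with earlier results of these data known. The comparisons with preadipocytes and the other-probe values of Abce1, Akap7, Jak1 and Usp18 were added after the data were seen. Promoters came from the RefSeq table for GRCm38.p6 and were aligned with Biopython 1.88. The scripts were tested on simulated data. Alternatives covered normalisation, low-signal filters, moderation, array weights, the groups in the fit, the replicate block and leaving out each array.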

Additional observations from a re-analysis of the deposited data

How the results depend on the processing

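The number of arrays and, for 9 of 17 probes, signal at background limit these results, and no direction of a member probe that was called turned under any alternative. Over the alternatives set at the start, 2609 results for single member probes kept their side of the threshold, 13 gained a call and 10 lost it. Most of the 2609 were uncalled in the main fit, many on probes at background. For those a change of direction was not counted, so the number says little of robustness. With adjusted p alone, added after seeing the data, 127 kept their side of the threshold and 9 gained a call. The bright Oas1g, Oas2 and Oasl2 rises in the Tmem120b knock-down were called in 20 of 20 alternatives, with Oas1g at 2.23 to 2.68, Oas2 at 2.08 to 2.47 and Oasl2 at 0.98 to 1.53.

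Counts of called member probes moved as follows; the cause was not tested. In differentiation (2 probes) there were 4 with arrays aligned by their medians, 1 with cyclic loess and, in an alternative added after seeing the data, 5 by adjusted p alone. No share of all probes was computed for adjusted p alone. For the departure from additivity (0 probes) there was 1 with cyclic loess, 1 with only probes above background and 1 with trend and robust moderation. Leaving out each array in turn gave 0 to 1 called probe in the Tmem120a knock-down, 0 without that group's replicate 2. It gave 0 to 2 in the double against the Tmem120b knock-down and 0 to 2 for additivity, each 2 without double knock-down replicate 1. In these fits the lone array of a group is assumed to vary like the other groups.

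Over all probes, median alignment called 4425 in the Tmem120a knock-down (main 1121) and 4700 in the Tmem120b knock-down (main 2510). The share of calls that were higher went from 49.4% to 72.9% in differentiation, 22.4% to 0.316% in the Tmem120a, 42.1% to 5.04% in the Tmem120b and 40.3% to 7.56% in the double knock-down.

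The labels give groups the same replicate numbers. Deviations of same-numbered arrays correlated at -0.114 to 0.182 over 20 pairs, 4 of them over 0.1. Of 11 arrays, 7 correlated best with their own number. In a group of 2 arrays the deviations mirror each other, so the value for a pair of such groups recurs under both numbers. The pairs are therefore not all separate, and whether the numbers pair the arrays was not settled. With the replicate number as a block, Oas1b in the Tmem120b knock-down was 0.48 (not called) and Oasl2 probe ILMN_2599154 in differentiation 0.52 (adjusted p = 0.0457, called), and no count of member calls moved by over 1.5 times.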

Other observations

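Some genes of the interferon lists differed from the synthetases in the direction, size or call of a comparison. Of those given here, Usp18 and Gbp2 were still lowest in preadipocytes and highest with the Tmem120b shRNA. Mb21d1, the cytoplasmic DNA sensor cGAS, fell 6.99-fold in differentiation, from a mean of 10.6 in preadipocytes to 7.79 in control adipocytes (log2 difference -2.81 ± 0.12 SE, limma adjusted p = 8.37e-10), where Oasl2 and Oas2 rose. Its means were then 8.47 in the Tmem120b and 8.50 in the double knock-down. The rise in the double knock-down was 0.71 ± 0.12 SE (adjusted p = 0.0011). Gbp2, an interferon-induced GTPase, rose 8.05-fold in differentiation (3.01 ± 0.057 SE, adjusted p = 7.62e-13), and its means in the Tmem120b and double knock-downs were 11.6 and 11.7. Usp18 was lower in the double than in the Tmem120b knock-down (-1.03 ± 0.14 SE, adjusted p = 0.0117), in a comparison where no synthetase probe was called, and its 2 probes had means of 11.6 and 9.71 in the Tmem120b and 10.6 and 8.70 in the double knock-down. Irgm1, an interferon-induced GTPase, and Ifitm3, an antiviral membrane protein, were the 2 effectors that fell in differentiation (-0.80 and -0.52, adjusted p = 8.32e-05 and 0.0114), both picked after their values were seen.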
